A study of Mus musculus with 24 samples.

Results

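The 8 mature miRNAs described here were chosen as leukocyte miRNAs: miR-150-5p, both arms of miR-142a, miR-155-5p, miR-342-3p, miR-181a-5p, miR-181b-5p and miR-223-3p. Not all are particular to leukocytes, as miR-181a-5p is also made in many other tissues. miR-150-5p is MIMAT0000160 in miRBase, miR-142a-5p MIMAT0000154, miR-142a-3p MIMAT0000155, miR-155-5p MIMAT0000165, miR-342-3p MIMAT0000590, miR-181a-5p MIMAT0000210, miR-181b-5p MIMAT0000673 and miR-223-3p MIMAT0000665. They were taken by these identifiers from a table of 2045 miRNA loci in mouse subcutaneous fat, which held 1907 mature miRNAs once copies of the same miRNA were summed. The 8 occupy 10 loci, because miR-181a-5p and miR-181b-5p each have 2 genomic copies. All 8 were measured in all 24 libraries.

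Fat is populated by resident macrophages, lymphocytes and other leukocytes beside its adipocytes, vessels and stroma, and a mouse subcutaneous pad can also hold a lymph node. The labels do not say whether one was removed. Blood cell lineages carry miRNAs that other cells of the pad hold little of, so a tissue library reads out their RNA together with that of the fat. A miRNA guides silencing complexes to messenger RNAs mainly through its seed, the bases near its 5′ end, and miRNAs with one seed share most targets. In a bulk library a higher level can come from more cells of a type or from more of the miRNA in each cell, and these cannot be told apart.

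RefSeq (build GRCm38.p6) held the mature sequence of 7 of the 8, and they are shown to make visible which of them share a seed and which do not. Each is written 5′ to 3′ with the seed, bases 2 to 8, in capitals.
miR-142a-5p: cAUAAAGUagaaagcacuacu
miR-142a-3p: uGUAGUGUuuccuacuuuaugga
miR-155-5p: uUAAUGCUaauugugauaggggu
miR-342-3p: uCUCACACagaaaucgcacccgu
miR-181a-5p: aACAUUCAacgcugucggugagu
miR-181b-5p: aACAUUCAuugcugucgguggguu
miR-223-3p: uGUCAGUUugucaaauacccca
Only miR-181a-5p and miR-181b-5p shared a seed among these 7, and in the RefSeq table of 1679 mature miRNAs the other holders of that seed were miR-181c-5p and miR-181d-5p. Counted from the 5′ end and reading miR-181a-5p first, the pair differed by A9U, C10U and A21G, all outside the seed. The other 5 seeds belonged to no second miRNA of that table. The deposited loci of miR-181b-5p are 23 bases long and lack the last base of the 24-base RefSeq sequence.

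The hairpin of miR-142 gives 2 of the 8 miRNAs, so it is shown whole, with the 5p arm and then the 3p arm in capitals.
Mir142: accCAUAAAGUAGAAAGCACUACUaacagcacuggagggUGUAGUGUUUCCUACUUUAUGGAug
It lies at chr11:87756864-87756927 on the plus strand of GRCm38 (mm10), in an intron of the long non-coding RNA gene Mir142hg. miR-142b is annotated on the opposite strand over the 3p arm. The 232219 reads counted for miR-142b came to 99.9% of the 232444 counted for miR-142a-3p, so these overlapping loci cannot be told apart in the counts. The locus of miR-142a-3p alone was used.

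The remaining loci are also on plus strands of GRCm38. miR-150-5p lies at chr7:45121762-45121783 with no other gene annotated there. miR-155-5p lies at chr16:84714143-84714165 in an exon of the non-coding Mir155hg, and miR-342-3p at chr12:108658680-108658702 in an intron of Evl. miR-223-3p lies at chrX:96242884-96242905 in an exon of the non-coding F630028O10Rik. The miR-181 copies stand in 2 clusters: Mir181a-1 and Mir181b-1 on chromosome 1, 97 bases apart, in an intron of the non-coding Gm4258, and Mir181a-2 and Mir181b-2 on chromosome 2, 1019 bases apart, opposite an intron of Nr6a1. The locus of Mir181b-1 also lies in an exon of the non-coding A430106G13Rik. The copies of a miRNA give the same mature sequence, so the counts cannot say which was transcribed. Of the reads of miR-181a-5p 50.5% were assigned to the chromosome 1 copy, and of those of miR-181b-5p 46.8%, and each pair of copies was summed.

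The study compared female mice of 2 genotypes, wild type (WT) and kinase dead (KD), each either sedentary or trained, in 4 groups of 6 libraries. Training was 1 hour of treadmill running at 16 m/min on 5 days a week over 6.5 weeks, with a running wheel freely available. All mice ate chow. The labels name neither the kinase, nor the tissue in which it is inactive, nor the age of the mice, nor the exact fat depot. They do not say that each library is a separate animal, so p-values measure the spread between libraries, which may be technical.

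Library totals ran from 1601209 to 20894237 reads in sedentary WT, 4628523 to 13157244 in trained WT, 2607927 to 13682683 in sedentary KD and 2286275 to 23593237 in trained KD. The scarcest count among the 8 was 78 reads, of miR-155-5p in the shallowest library. Levels are given as CPM, read counts scaled to the library total and, between libraries, with edgeR's TMM factors. Adapter ligation captures different miRNAs with different efficiency, so the order of levels between miRNAs describes the libraries and not molecules per cell.

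The libraries fell into 2 sets that neither genotype nor training defined. When the 24 were ordered by miR-150-5p, a regulator of lymphocyte maturation that mature B and T cells hold in abundance, the widest step lay between 1015 and 3630.5 CPM, 1.84 on the log2 scale, and the next widest was 0.33. Above it stood 7 libraries and below it 17. The 7 were 1 of sedentary WT, 2 of trained WT, 2 of sedentary KD and 2 of trained KD. Because the sets were formed on one of the miRNAs described, and the split was known from earlier results of these data, their levels are described with no test.

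miR-150-5p stood at 5882 CPM in sedentary WT replicate 1, at 5348 and 3630.5 in trained WT replicates 1 and 2, at 6003 and 5220.1 in sedentary KD replicates 5 and 6, and at 4412 and 6739 in trained KD replicates 3 and 6. In the other 17 libraries it ranged from 541 to 1015 CPM with a median of 735. Every group held libraries of both kinds, and the 4 groups overlapped.

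miR-142a-5p, made across all blood cell lineages and little elsewhere, had the largest ratio between the sets among the 8. It was 10986 CPM in sedentary WT replicate 1, 10264 and 6261 in trained WT replicates 1 and 2, 9917 and 7239.5 in sedentary KD replicates 5 and 6, and 6282 and 10315 in trained KD replicates 3 and 6. The other 17 lay between 484 and 1332 CPM with a median of 723, so the ratio of the medians was 13.7. It was the highest of the 8 miRNAs in all 7 libraries above the step, while miR-181a-5p was the highest in all 17 below it.

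miR-142a-3p, the other arm of that hairpin, lay between 2371 and 3852 CPM in the 7 libraries and between 155 and 772 CPM in the other 17, with a ratio of medians of 11.2. The arms did not keep one proportion. Between 1.32 and 5.50 reads of the 5p arm were counted per read of the 3p arm over the libraries, with medians of 2.66 in the 7 and 2.33 in the 17. The spread was wider in the 17 (1.32 to 5.50) than in the 7 (2.17 to 4.35).

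miR-155-5p, which is induced when lymphocytes and macrophages are activated, lay between 310.02 and 500.3 CPM in the 7 libraries and between 45.7 and 81.3 CPM in the other 17. Its ratio of medians was 7.36, close to the 7.28 of miR-150-5p. For each read of miR-150-5p the libraries held a median of 0.0831 reads of miR-155-5p in the 7 and 0.0835 in the 17. miR-155-5p was the scarcest of the 8 in all 17 libraries below the step.

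miR-342-3p, a leukocyte miRNA encoded in the cytoskeletal gene Evl, followed the split with a smaller ratio. In the 7 it was between 250.1 and 517 CPM and in the others between 75.0 and 128 CPM, and the ratio of medians was 3.52. Its level per read of miR-150-5p was 0.0653 in the 7 and 0.136 in the 17 (medians).

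**Figure D1:**
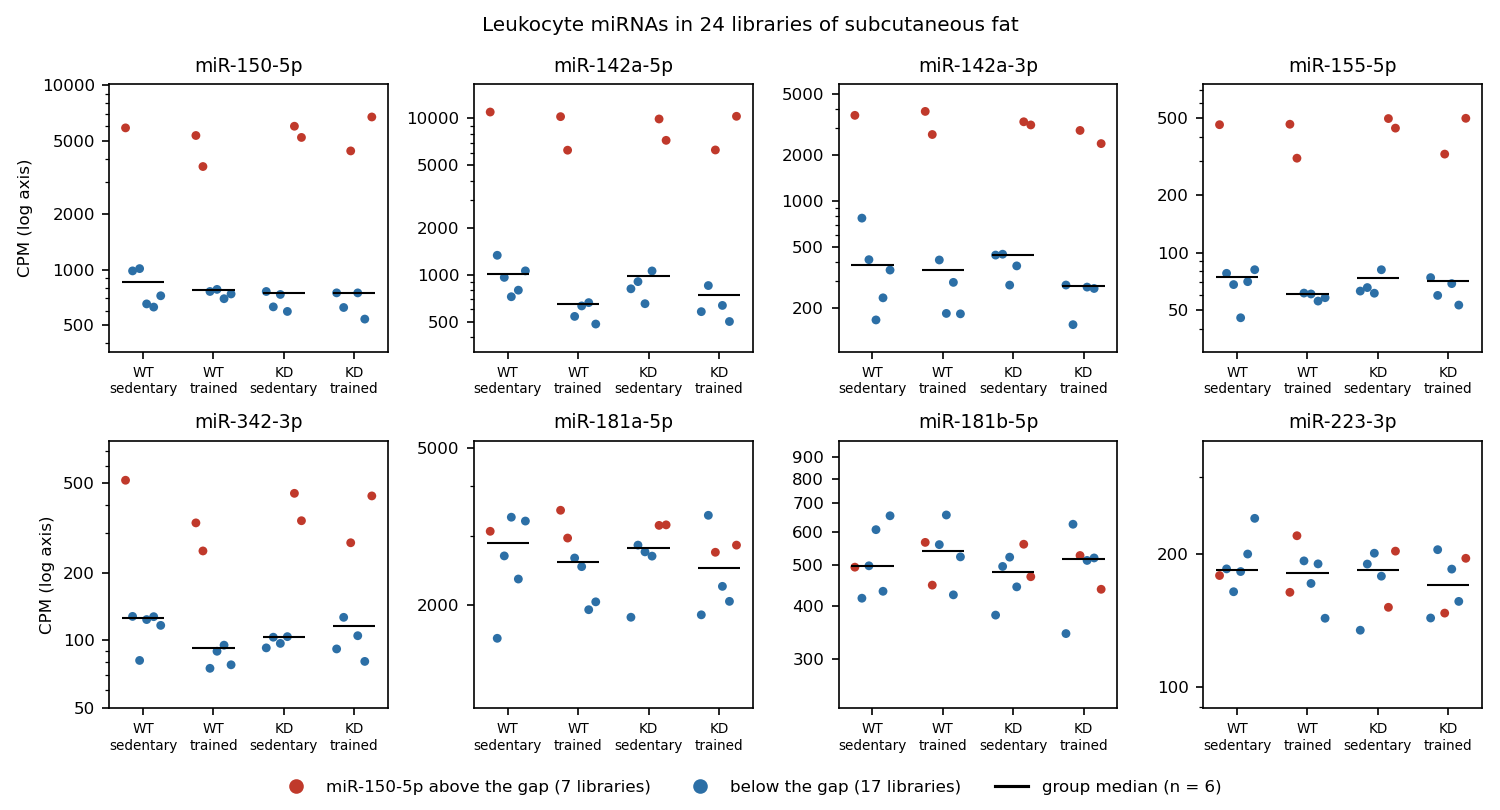
Each point is 1 library, on a log axis of CPM, in the 4 groups of 6 libraries, and black lines are group medians. The 7 red libraries, above the step in miR-150-5p, stand apart in the first 5 panels (miR-150-5p at 3630.5 CPM or more against 1015 or less) and lie among the blue ones for miR-181a-5p, miR-181b-5p and miR-223-3p.

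miR-181a-5p, which tunes antigen receptor signalling in developing lymphocytes and is also made in many other tissues, overlapped between the sets. It ranged from 2721 to 3476 CPM in the 7 libraries and from 1648 to 3376 CPM in the other 17, with a ratio of medians of 1.23. All 7 lay above the median of the 17, and 5 of the 17 lay above the lowest of the 7.

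miR-181b-5p, of the same seed and the same transcripts, did not follow. It ranged from 438 to 566 CPM in the 7 libraries and from 344 to 657 CPM in the other 17, and 3 of the 7 lay above the median of the 17. Reads of miR-181a-5p per read of miR-181b-5p ranged from 5.17 to 6.81 in the 7 and from 3.81 to 5.995 in the 17.

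The 3p arms of the miR-181a hairpins differ in sequence, so they report on each genomic copy separately. miR-181a-1-3p, of the chromosome 1 cluster, had a median of 77.8 CPM in the 7 and 58.6 CPM in the 17. miR-181a-2-3p, of the chromosome 2 cluster, had 17.6 and 19.8 CPM. The chromosome 1 arm was counted 2.48 to 5.57 times for each read of the other in the 7, and 1.89 to 4.40 times in the 17, so these ranges overlapped.

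miR-223-3p, a miRNA of neutrophils and other myeloid cells, also lay together in both sets, between 147 and 220.5 CPM in the 7 libraries and between 135 and 241 CPM in the other 17. It had the narrowest spread of the 8, with 1.79-fold between its highest and lowest library. In the 7 libraries above the step it was the scarcest of the 8.

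Of the 8 miRNAs 5 had no overlap between the sets, all higher in the 7 libraries. Among all 582 features tested, 57 (9.79%) were higher without overlap and 7 (1.2%) were lower without overlap. As miR-150-5p made the sets and the 8 were chosen as leukocyte miRNAs, nothing is read from that count. Together the 8 took 1.64% to 3.03% of the reads of each of the 7 libraries and 0.379% to 0.667% in the 17. Depth ran from 3917134 to 13682683 reads in the 7 libraries and from 1601209 to 23593237 in the 17. These ranges overlapped, but the median depth was lower in the 7, at 4740370 reads against 8731821 in the 17. The sets were thus not matched in depth.

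The rise over the base level was set against that of miR-150-5p, on which the 7 libraries were chosen. On this scale a miRNA that does not follow miR-150-5p falls near 0 and below its base value by construction. The values are therefore a description. With the median of the 17 libraries subtracted, each CPM of miR-150-5p in the 7 came with a median of 1.75 CPM of miR-142a-5p (range 1.45 to 2.07), against 0.984 for the base levels themselves. For miR-155-5p the figure was 0.0827 (range 0.0714 to 0.0873) against 0.0856 at base. For miR-342-3p it was 0.0545 (range 0.0477 to 0.0816) against 0.132 at base, and for miR-181a-5p 0.129 (range 0.0557 to 0.211) against 3.40. miR-142a-3p had a median of 0.651 (range 0.348 to 0.842) against 0.383 at base. miR-181b-5p and miR-223-3p had medians of -0.0036 and -0.0012, against 0.697 and 0.252 at base. Per unit of miR-150-5p every one of the 7 libraries thus lay above the base value for miR-142a-5p and below it for miR-342-3p, miR-181a-5p, miR-181b-5p and miR-223-3p, while the ranges for miR-155-5p and miR-142a-3p included theirs.

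Within the sets, covariation was computed for 18 relations on log2 CPM, with two-sided permutation p-values (exact for the 7 libraries) and Benjamini-Hochberg adjustment over the 18. Values of 1 library share its depth and scaling. No pooled correlation over the 24 is given, since the sets stand apart.

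In the 7 libraries miR-155-5p followed miR-150-5p closely, with Pearson r = 0.944 (exact permutation p = 0.00119, adjusted p = 0.0107) and Spearman rho = 0.964 (exact permutation p = 0.00278, adjusted p = 0.0344). Without the 2 libraries farthest from the median of miR-150-5p r was 0.940. miR-342-3p had r = 0.896 (exact permutation p = 0.00635, adjusted p = 0.0381) and 0.924 without those libraries, and rho = 0.821 (exact permutation p = 0.0341, adjusted p = 0.151). miR-142a-5p had r = 0.861 (exact permutation p = 0.0131, adjusted p = 0.0589) and 0.873 without them, with rho = 0.821 (exact permutation p = 0.0341, adjusted p = 0.151), and did not pass. The other 4 relations with miR-150-5p had r between -0.23 and 0.22 in the 7 libraries. Leaving out the 2 farthest libraries moved 3 of these: r was then 0.637 for miR-142a-3p (from 0.112), 0.614 for miR-181a-5p (from 0.216) and 0.234 for miR-223-3p (from -0.234) over 5 libraries each, while miR-181b-5p was at 0.0965 (from 0.114). None of the 4 passed, with adjusted permutation p-values (exact) from 0.724 to 0.812.

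In the 17 libraries none of the 7 relations with miR-150-5p passed. miR-142a-3p came nearest, with r = 0.464 (permutation p = 0.0637, adjusted p = 0.191) and rho = 0.392 (permutation p = 0.1202, adjusted p = 0.360). miR-155-5p had r = 0.298 (permutation p = 0.241, adjusted p = 0.483) and miR-342-3p r = -0.15 (permutation p = 0.577, adjusted p = 0.724). miR-181a-5p had r = -0.29 (permutation p = 0.252, adjusted p = 0.483), and -0.62 without the 2 farthest libraries. Whether the relations differed between the sets was not tested.

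miR-181a-5p and miR-181b-5p moved together in the 17 libraries, with r = 0.744 (permutation p = 0.00082, adjusted p = 0.0107) and rho = 0.679 (permutation p = 0.00382, adjusted p = 0.0344), and r = 0.699 without the 2 farthest libraries. Centred within each group, r was 0.836. In the 7 libraries r was 0.493 (exact permutation p = 0.264, adjusted p = 0.483). The arms of miR-142a had r = 0.555 in the 17 (permutation p = 0.0220, adjusted p = 0.0791), which fell to 0.264 without the 2 farthest libraries and so rests on them, and r = 0.390 in the 7 (exact permutation p = 0.374, adjusted p = 0.612).

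**Figure D2:**
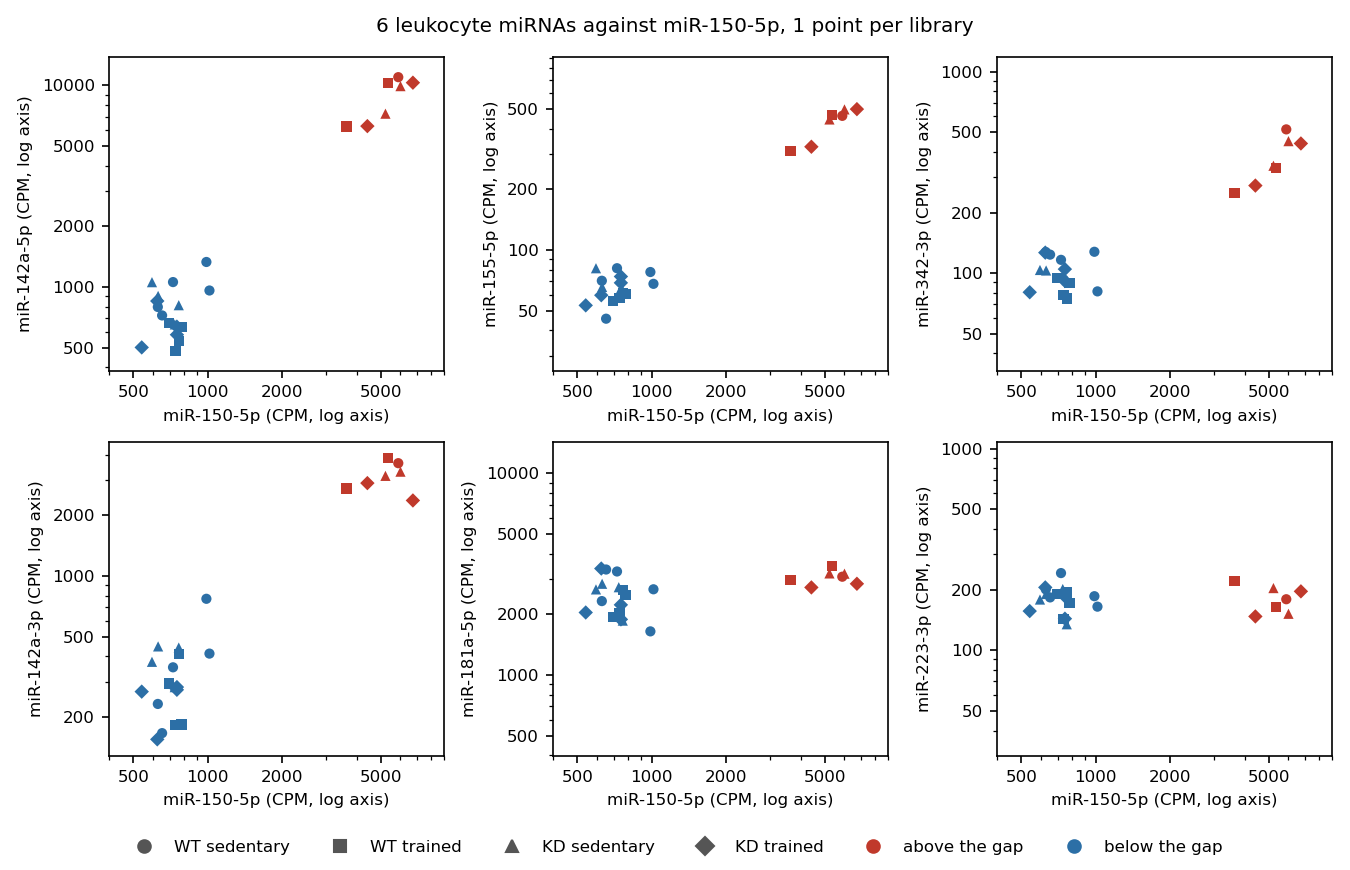
Each panel plots 1 miRNA against miR-150-5p in CPM on log axes, 1 point per library, with the shape giving the group and red the 7 libraries above the step. miR-155-5p and miR-342-3p rise along miR-150-5p inside the red set (r = 0.944 and 0.896), while the red and blue points of miR-181a-5p and miR-223-3p overlap in height, with ratios of medians of 1.23 and 0.967.

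Training did not separate the WT groups in any of the 8. In sedentary WT miR-150-5p had a lowest, median and highest value of 628, 855 and 5882 CPM, and in trained WT of 697, 773 and 5348 CPM. miR-142a-5p had 723, 1009.9 and 10986 CPM in sedentary and 484, 647 and 10264 CPM in trained libraries. For both miRNAs the median was lower and the mean higher in trained libraries, 2 of which lay above the step against 1 sedentary library.

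The quasi-likelihood test of edgeR, adjusted with Benjamini-Hochberg, called 0 of the 8 for training in WT, beside 0 of 582 features (0%). At an unadjusted p under 0.05 there were 0 of the 8 and 31 of 582 (5.33%). DESeq2 called 0 features, with 38 at an unadjusted p under 0.05 and 0 of the 8 among them. The log2 fold change of miR-150-5p was 0.27 with a standard error (SE) of 0.82 and a 95% interval from -1.42 to 1.97 (edgeR adjusted p = 0.977). miR-142a-5p stood at 0.25 (SE 1.01, interval -1.83 to 2.33). Single libraries decided the size and sign of these estimates. Without sedentary WT replicate 1 miR-150-5p stood at 1.29 and without trained WT replicate 1 at -0.41, and miR-142a-5p at 1.66 and -0.73. miR-142a-3p and miR-155-5p turned from positive to negative without trained replicate 1 (-0.40 and -0.39), and miR-342-3p, at -0.25 (SE 0.56), turned to 0.40 without sedentary replicate 1.

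The 3 miRNAs outside the split gave much narrower intervals in WT. miR-223-3p averaged 192 ± 26.7 CPM in sedentary and 181 ± 26.8 CPM in trained libraries (SD over 6 libraries), and its fold change of 0.938 had an interval from 0.770 to 1.14. miR-181a-5p averaged 2719.5 ± 650 and 2592 ± 574 CPM, a fold change of 0.953 (interval 0.731 to 1.24). miR-181b-5p averaged 517 ± 94.6 and 529.6 ± 85.0 CPM, a fold change of 1.02 (interval 0.826 to 1.27). For miR-142a-5p the interval of the fold change ran from 0.281 to 5.03, so at this spread a severalfold difference in either direction was not detectable.

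In KD mice edgeR again called 0 of the 8 after training, beside 0 of 582 features (0%), and at an unadjusted p under 0.05 it had 0 of the 8 and 14 of 582 (2.41%). DESeq2 called 0 features, with 15 at an unadjusted p under 0.05. miR-150-5p had 595, 749.03 and 6003 CPM as lowest, median and highest value in sedentary KD and 541, 749.9 and 6739 CPM in trained KD, a log2 fold change of -0.01 (SE 0.82). miR-142a-5p went from a median of 980.3 to 744 CPM, with a log2 fold change of -0.10 (SE 1.01), and from -1.02 without trained KD replicate 6 to 0.55 without sedentary KD replicate 5. miR-223-3p was at -0.04 (interval -0.32 to 0.25).

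Genotype made no called difference in either state. Among sedentary mice edgeR called 0 of the 8 and 0 of 582 features (0%), with 0 of the 8 and 7 of 582 (1.2%) at an unadjusted p under 0.05, and DESeq2 called 0 with 6 unadjusted. miR-155-5p had the largest estimate of the 8 there, a KD minus WT log2 fold change of 0.59 (SE 0.78), with medians of 74.2 CPM in WT and 73.5 CPM in KD. It ran from 0.12 without sedentary KD replicate 5 to 1.68 without sedentary WT replicate 1, and was -0.02 without the 7 libraries. miR-150-5p was at 0.50 (SE 0.82), and ran from -0.03 without sedentary KD replicate 5 to 1.66 without sedentary WT replicate 1. Among trained mice edgeR called 0 of the 8 and 0 of 582 (0%), with 0 of the 8 and 4 of 582 (0.687%) unadjusted, and DESeq2 called 0 with 9 unadjusted. miR-342-3p was at 0.28 (SE 0.56), and miR-150-5p ran from -0.42 without trained KD replicate 6 to 0.86 without trained WT replicate 1.

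The difference of the training effects, KD minus WT, was tested as the interaction. edgeR called 0 of the 8 and 0 of 582 features (0%), with 0 of the 8 and 13 of 582 (2.23%) at an unadjusted p under 0.05, and DESeq2 called 0 with 10 unadjusted. miR-142a-3p had the largest estimate of the 8, -0.81 (SE 1.36), which ran from -2.10 without sedentary WT replicate 1 to -0.02 without trained WT replicate 1. The estimate of miR-223-3p was 0.05 (SE 0.20). By group mean, miR-150-5p stood in the order sedentary KD (2324 CPM), trained KD (2303), trained WT (1994) and sedentary WT (1648), with SDs from 2008 to 2641 CPM, so the means of no neighbouring groups differed beyond their spread. miR-223-3p was in the order sedentary WT (192 CPM), trained WT (181), sedentary KD (177) and trained KD (172), with SDs from 26.5 to 27.9 CPM, and neighbours there did not differ beyond their spread either.

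Among the 17 libraries below the step miR-142a-5p was lower in trained than in sedentary mice of both genotypes, without passing the adjusted threshold. In WT it was 1332, 961, 723, 796 and 1058.5 CPM in the 5 sedentary libraries and 541, 632, 663 and 484 CPM in the 4 trained ones. Each trained value lay below each sedentary one. Without the 7 libraries the log2 fold change was -0.71 (SE 0.19, interval -1.11 to -0.30), with an edgeR adjusted p = 0.226, and its p ranked 2 of 586 features. Over all settings tried for the 8 miRNAs and the 5 comparisons that was also the smallest adjusted p. The 17 libraries were kept for their low miR-150-5p, and miR-142a-5p followed that step, so its estimate and narrow SE are bounded by the cut. Over all 24 libraries its estimate in WT had the other sign, at 0.25 (SE 1.01).

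In KD it was 813, 903, 653 and 1057 CPM in the 4 sedentary and 580.4, 853, 636 and 502 CPM in the 4 trained libraries. These overlapped, and the log2 fold change was -0.45 (SE 0.20, edgeR adjusted p = 0.660). The arm partner miR-142a-3p was at -0.49 (SE 0.35) in WT and -0.69 (SE 0.37) in KD, in the same direction and with intervals that include 0.

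The same libraries gave more small p-values in general. In WT 2 of the 8, miR-142a-5p and miR-342-3p, had an unadjusted edgeR p under 0.05, against 73 of 586 features (12.5%), and 0 of the 8 and 0 of 586 (0%) passed after adjustment. In KD it was 1 of the 8, miR-142a-5p, against 41 of 586 (7%), and 0 and 0 of 586 (0%) after adjustment. Groups without overlap were found for 1 of the 8 and 19 of 586 features (3.24%) in WT, and for 0 of the 8 and 20 of 586 (3.41%) in KD. miR-342-3p in WT was at -0.41 (SE 0.16, adjusted p = 0.344) and in KD at -0.01 (SE 0.17). miR-150-5p, which set the step, was at -0.06 (SE 0.16) in WT and -0.07 (SE 0.17) in KD, and miR-155-5p at -0.18 (SE 0.16) and -0.11 (SE 0.17). The 17 libraries were kept for their low miR-150-5p, so its estimates and their narrow SEs are bounded by that cut. Nothing is read from them, and the miRNAs that followed the step share this limit.

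**Figure D3:**
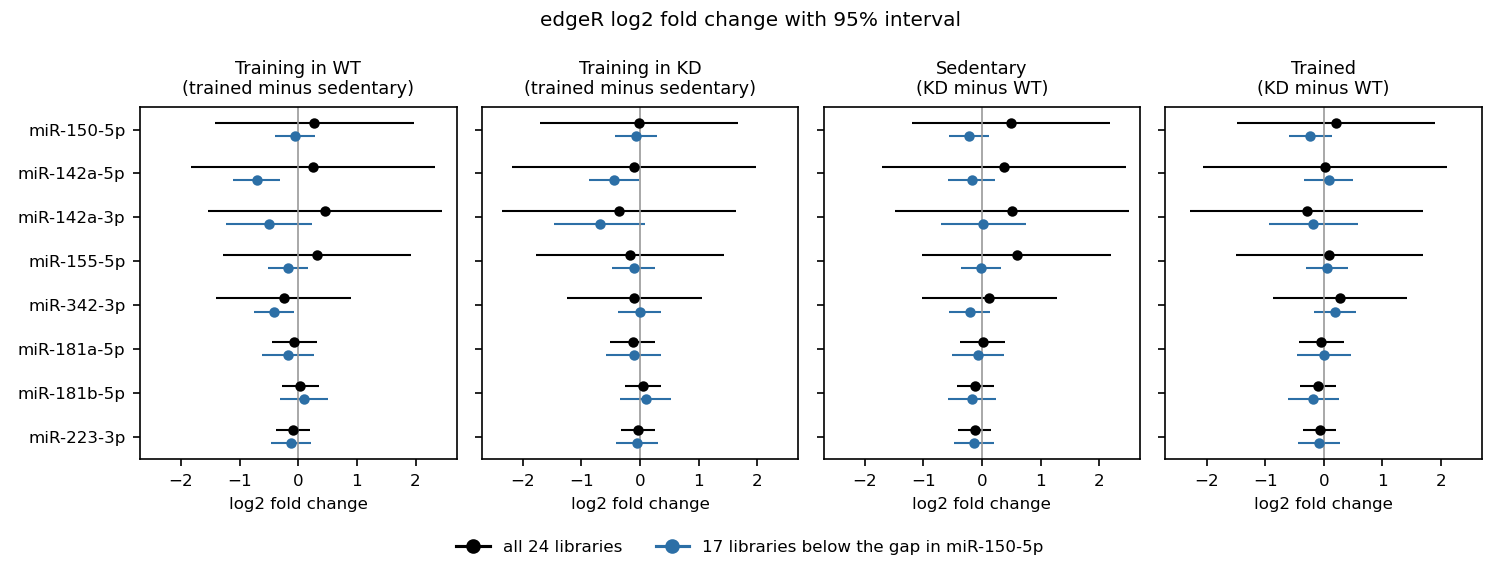
Points are edgeR log2 fold changes and bars 95% intervals of the 8 miRNAs in 4 comparisons, black for all 24 libraries and blue for the 17 below the step in miR-150-5p. All black intervals include 0, and for training the blue intervals of miR-142a-5p (-0.71 in WT, -0.45 in KD) and of miR-342-3p in WT (-0.41) do not. None of these passed after adjustment (edgeR adjusted p = 0.226, 0.660 and 0.344). In the 17 libraries 12.5% of 586 features in WT and 7% in KD had an unadjusted edgeR p under 0.05.

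Of the 8 other arms of these hairpins, leaving miR-142a aside, 3 were higher in the 7 libraries with no overlap, beside 9.79% of all features tested, and their partners were too. As for the 8 miRNAs themselves, nothing is read from that count. miR-150-3p lay between 35.8 and 61.3 CPM in the 7 libraries and between 4.30 and 9.25 CPM in the 17, and made up 0.904% of the reads of its hairpin. miR-342-5p lay between 19.9 and 33.4 CPM against 1.87 and 12.8 CPM, with 7.51% of its hairpin's reads. miR-155-3p, with 129 reads in all, was at the limit of the depth and made up 0.375%. miR-223-5p, at 28.0% of its hairpin the most balanced of these arms, overlapped between the sets as miR-223-3p did (46.5 to 96.2 against 55.1 to 142 CPM). The 4 arms of miR-181a and miR-181b overlapped as well, with ratios of medians of 1.33 for miR-181a-1-3p, 0.887 for miR-181a-2-3p, 1.08 for miR-181b-1-3p and 1.01 for miR-181b-2-3p.

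The further members of the miR-181 family overlapped between the sets. miR-181c-5p ranged from 90.8 to 360 CPM in the 7 libraries and from 89.2 to 753 CPM in the other 17, and miR-181d-5p from 187 to 298 and from 215.5 to 486 CPM. Of the 3 features of that list that were tested, 0 passed in either direction in any of the 5 comparisons by edgeR.

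Other miRNAs known from lymphoid cells were higher in the 7 libraries for 11 of 12 by median, and 6 of the 12 were higher with no overlap. Over all 582 features tested, 260 (44.7%) had a higher median in the 7 libraries and 57 (9.79%) were higher with no overlap. The list was chosen with earlier results of these data known and the sets were formed on miR-150-5p, so nothing is read from these counts. miR-92a-3p had medians of 6027 and 2807 CPM with overlap. miR-20a-5p, of a cluster that promotes lymphocyte proliferation, had 1526 and 1062 CPM with overlap, and miR-146a-5p, which dampens NF-kappaB signalling, 2515 and 898 CPM without overlap. For training in WT the 12 had a median log2 fold change of 0.10 beside 0.01 over all features, for training in KD 0.01 beside 0.01, and 0 of 12 passed in either direction in each of the 5 comparisons. The other myeloid miRNAs, led by miR-511-3p of the macrophage gene Mrc1, had no member without overlap. By median 2 of the 4 were higher in the 7 libraries, beside 44.7% of all features tested. miR-511-3p lay between 48.9 and 95.7 CPM in the 7 libraries and between 42.7 and 162 CPM in the other 17, and 0 of the 3 myeloid features tested passed in the 5 comparisons.

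Markers of other cells had no higher medians in the 7 libraries. The 4 red cell miRNAs, 2 endothelial, 6 adipocyte and stromal, 6 epithelial and 5 striated muscle miRNAs held 0 members with a higher median there, against the 44.7% of all tested features. These lists too were chosen with earlier results known, and nothing is read from the counts. For adipocyte and stromal miRNAs, led by miR-143-3p, summed levels were 130200 to 184570 CPM in those 7, against 179240 to 259000 CPM in the others. In the same order they were 11865 to 14343 and 13067 to 24316 CPM for epithelium, 29874 to 63264 and 38676 to 75577 CPM for endothelium, 452 to 1170.5 and 725 to 8417 CPM for muscle, and 1406 to 9414 and 1338 to 5347 CPM for red cells. All 5 sums overlapped between the sets, but not every single miRNA did. miR-199a-3p of the stromal list was lower in the 7 libraries with no overlap (8340 to 11411 against 11740 to 16557 CPM). So was miR-200b-3p of epithelium (1643 to 2507 against 2514 to 4894 CPM). Among all 582 features tested, 7 (1.2%) were lower with no overlap. miR-208b-3p of muscle was near 0 with 9 reads in all. The part of these cell types in the differences above was not tested.

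**Figure D4:**
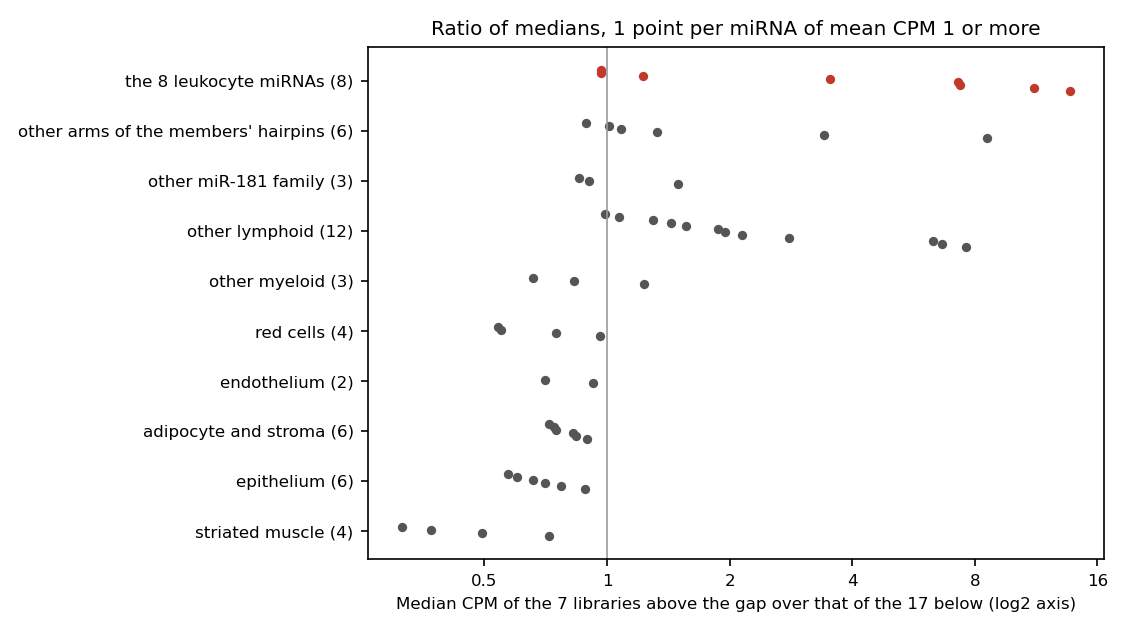
Each point is 1 miRNA of mean CPM 1 or more, placed on a log2 axis by the ratio of its median CPM in the 7 libraries above the step to that in the 17 below, with the number of miRNAs per list in brackets. The 8 leukocyte miRNAs (red) run from 0.964 to 13.7, and the points of adipocytes and stroma, endothelium, epithelium, red cells and muscle lie below 1.

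The profiles most like that of miR-150-5p over the 24 libraries belonged to a small group of miRNAs. Likeness was the root mean square difference of log2 CPM after centring each profile on its mean, over 357 other miRNAs of at least 10 CPM, with a median of 1.41 and a value of 1.32 for a flat profile. Both sets are pooled here, so the ranking largely restates the step in miR-150-5p and favours steps of a like size. Among all 582 features tested, 57 (9.79%) were higher in the 7 libraries with no overlap. miR-155-5p came first at 0.24 and miR-150-3p, of the same hairpin, second at 0.25. Then followed 3 miRNAs of the miR-106a to miR-363 cluster on the X chromosome: miR-106a-5p at 0.30, miR-363-3p at 0.34 and miR-20b-5p at 0.36.

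miR-467c-5p stood at 0.39 and miR-467e-5p at 0.51, around miR-142a-5p at 0.46. miR-142a-3p ranked 9 at 0.53 and miR-342-3p 11 at 0.56. miR-181a-5p ranked 73 at 1.21, miR-223-3p 135 at 1.35 and miR-181b-5p 137 at 1.35, about as far from miR-150-5p as a flat profile. miR-20b-5p lay between 60.8 and 101 CPM in the 7 libraries and between 4.10 and 17.7 CPM in the 17, and miR-106a-5p between 27.0 and 46.6 and between 4.28 and 7.97 CPM.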

How the data were processed

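Small RNA libraries were made from TRIzol RNA of subcutaneous fat with a NEBNext small RNA kit, per the labels' protocols. The submitters' processing notes name CASAVA 1.8.2, the trimmer Trim Galore, the aligner Bowtie2, the counter featureCounts and mouse build mm10. They state no other version, nor how strand, repeated matches or overlapping loci were handled. Raw counts were deposited by the authors for each mature miRNA locus, 1 column per library, without normalization.

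Loci were named from RefSeq mature miRNAs on GRCm38.p6 sharing at least 15 bases on the same strand (1679 loci), otherwise from the GENCODE M21 hairpin and arm (366). Copies of an accession were summed (1907 features). edgeR 4.0.16 (R 4.3.3) fitted the 4 groups together with TMM factors. filterByExpr kept 582 features, with all 8 leukocyte miRNAs among them, and the 1325 others held 0.0150% of the reads. P-values were adjusted with Benjamini-Hochberg over all tested features, with a threshold of 0.05. The fit was tested on simulated data. DESeq2 1.42.0 was an alternative. Log2 CPM used a prior count of 2, and correlations used scipy 1.17.1 with 100000 resamples where not exact. Named miRNAs were the 8 members, the 3 most abundant of each marker list, the 6 other profiles nearest to miR-150-5p, and the feature with the smallest p in each comparison. Some arms, copies and list members were named beyond these after their values were seen. Members and lists were chosen with earlier results of these data known. Replicate numbers follow accession order and pair nothing. At these depths 3 reads stand for 0.127 to 1.87 CPM. Counting error weighs more on scarce miRNAs: miR-155-5p had as few as 78 reads in a library, and miR-155-3p had 129 in all.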

Additional observations from a re-analysis of the deposited data

Results flagged for a closer look

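In the 32 sets of 6 libraries (8 miRNAs in 4 groups), 5 had an extreme library whose gap to its neighbour took more of the range of log2 CPM than Dixon's 95% critical value. Chance flags about 1 in 20 such sets if values are normal and the sets independent. The 8 miRNAs share libraries, so the sets are not independent and that rate cannot be set against the 5 flags. In sedentary WT 4 of them were the same library, replicate 1: miR-150-5p at 5882 CPM against 628 to 1015 CPM in the other 5, miR-142a-5p at 10986 against 723 to 1332 CPM, miR-155-5p at 463 against 45.7 to 81.3 CPM, and miR-342-3p at 517 against 81.3 to 128 CPM. That group held a single library above the step in miR-150-5p and the other groups held 2 each. In sedentary KD the lowest library, replicate 1, held 1863 CPM of miR-181a-5p against 2660.5 to 3193 CPM in the other 5.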

How the results depend on the processing

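The counts of called features were 0 in all 106 alternative fits of the 5 comparisons, which were DESeq2 size factors, library totals without TMM, no filter, DESeq2, single loci, only the compared groups, the 17 libraries below the step, and each library left out (range 0 to 0). Of 848 alternative fold changes of the 8 miRNAs, 151 had the other sign, in 33 of the 40 results, and 0 passed the threshold, with a smallest adjusted p of 0.226. Those signs are of estimates within their error. Of the 18 relations 3 passed, and 3 did with library totals or with a prior count of 0.5. Centring within groups was run for the 17 libraries only, since a group held 1 or 2 of the 7. The scarcest count among the 8 was 78 reads, and a group held 1 or 2 of the libraries above the step.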

Other observations

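The features with the smallest p in each comparison were none of the 8. They were miR-221-3p for training in WT (log2 fold change -0.38, SE 0.12, edgeR adjusted p = 0.779), miR-129b-3p for training in KD (-0.91, SE 0.29, adjusted p = 0.945), miR-101b-5p for sedentary KD against WT (0.68, SE 0.27, adjusted p = 0.991), miR-122-5p, a liver miRNA, for trained KD against WT (-2.11, SE 0.96, adjusted p = 0.996), and miR-1941-5p for the interaction (-1.10, SE 0.45, adjusted p = 0.993).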
